A study of Mus musculus with 3 samples.

Results

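Macrophages of the mouse forelimb bud at embryonic stage E10.5 are described here. They are the cells of 1 library that lie in cluster 3 of the authors' deposited clusters and hold at least 3 unique molecular identifiers (UMIs, 1 per captured RNA molecule) summed over C1qa, C1qb and C1qc, the genes of the 3 chains of complement C1q. There were 101 such cells among the 707 cluster 3 cells of the library, which is 14.3% (exact Clopper-Pearson 95% interval 11.8 to 17.1%), and among all 18957 of its cells, which is 0.533% (0.434 to 0.647%), of 43950 cells in the series. The members were chosen by measured values, their C1q UMIs and their cluster. Because C1q UMIs chose the cells and the clusters were made from the expression of the same cells, the levels below describe these cells and test nothing.

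The series profiled dissected forelimb buds of wild-type embryos after trypsin digestion, by droplet 3′ single-cell RNA sequencing, with 1 reaction for each group. The groups were strain c57bl6.J at E10.5 (B6_E10.5), the same strain at E9.5 (B6_E9.5) and strain 129S6.sv at E9.5 (129_E9.5). None carried a mutation or a treatment, and the labels do not give the number of embryos pooled. With 1 library per group and cells that are not replicates, no p-value is given, and all intervals cover counting error only.

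Macrophages are tissue-resident phagocytes. In the mouse embryo the first ones come from yolk-sac progenitors and enter the tissues through the circulation, where they clear dying cells and take up iron and lipids. Their survival depends on the receptor Csf1r, their identity on the transcription factor Spi1 (PU.1), and their surface carries Fc, complement and scavenger receptors. In the limb bud they are few at first and lie in the mesenchyme.

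The macrophages held 720533 UMIs in all, with 541 to 19908 per cell and a median of 6501. The other 606 cluster 3 cells held 4439733 UMIs, with 507 to 26237 per cell and a median of 6454. The lowest, median and highest C1q sums of the macrophages were 3, 26 and 112 UMIs. Just inside the threshold 6 cells had 3 C1q UMIs, and just outside it 5 cells had 2 and 9 cells had 1, while 592 cluster 3 cells had 0. In cluster 0 of the same library, whose cells carry limb mesenchyme markers, 54 of 15325 cells (0.352%, median depth 5422 UMIs) held any C1q UMI. The barcodes of 5 macrophages also occurred in another library, and cells were kept apart by library.

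**Figure D1:**
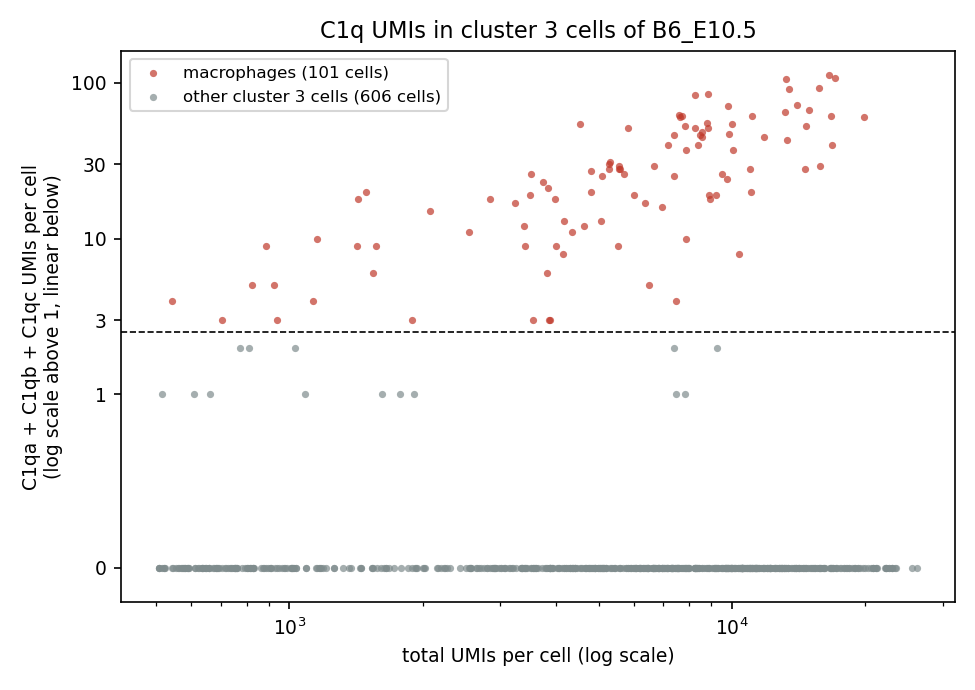
Summed C1qa, C1qb and C1qc UMIs (vertical axis, log scale above 1 and linear below) against total UMIs (horizontal axis, log scale) for each cluster 3 cell of B6_E10.5, with macrophages in red, other cells in grey and a dashed line at the threshold. The 101 macrophages lie above the line at depths of 541 to 19908 UMIs, and 592 of the other 606 cells lie at 0.

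The C1q genes lie side by side on the minus strand of chromosome 4 (GRCm38), with C1qb at chr4:136880129-136886187, C1qc at chr4:136889804-136893065 and C1qa at chr4:136895917-136898803 in the GENCODE M21 annotation. On the scale of counts per 1000000 UMIs of a set of cells (CPM, with exact Poisson 95% intervals in brackets), C1qb stood at 2399.6 CPM (2288 to 2515) in the macrophages and 2.03 CPM (0.927 to 3.85) in the other cluster 3 cells. C1qc stood at 1434 CPM in the macrophages, against 0.676 CPM in the other cells, and C1qa at 684 CPM, against 1.58 CPM. C1qb was found in 101 of the 101 macrophages, C1qc in 97 and C1qa in 83. These 3 genes formed the rule, so their levels are no result.

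The label's other markers were Csf1r and Pf4. Csf1r, the receptor for the growth factors Csf1 and Il34, stood at 369 CPM (326 to 416) in the macrophages and 11.04 CPM (8.17 to 14.6) in the other cluster 3 cells. Pf4, a chemokine best known from platelets and megakaryocytes, went the other way, with 109 UMIs and 151 CPM (124 to 182) in the macrophages and 5404 UMIs and 1217 CPM (1185 to 1250.1) in the other cells. Pf4 was found in 34 macrophages (33.7%) and in 34 of the 606 other cells (5.61%), where it was concentrated. Its UMIs in the macrophages came without other megakaryocyte transcripts: the 109 Pf4 UMIs stood beside 1 of Ppbp, 2 of Itga2b and 1 of Itgb3, while the other cells had 5404 of Pf4 beside 829, 226 and 486. In cluster 0 Pf4 stood at 0.959 CPM and was found in 0.372% of cells. Of the 2 marker genes of the label that the rule did not use, Csf1r was thus higher in these cells than in the rest of the cluster and Pf4 was lower.

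Across the transcriptome, 3478 genes reached 50 CPM and 20 UMIs on 1 side. Of these, 387 (11.1%) were at least 2-fold higher in the macrophages than in the other cluster 3 cells, and 516 (14.8%) were at least 2-fold lower. The median log2 ratio of all 3478 genes was -0.23, and the higher genes included 113 with a ratio of at least 10. A gene was called where the exact 95% interval of the ratio also excluded 1. A gene under 50 CPM in the other cells could reach the floor only by being higher in the macrophages, and the reverse. Counts of list members called higher or lower below are therefore partly fixed by the floor, and no test is read from them. The split moved with the scaling: with TMM factors 470 were higher and 404 lower, and with median-of-ratios size factors 483 and 404. The directions of all lists below held under both scalings, except the near-zero median of the S phase list, which changed sign.

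After the C1q genes, the 20 largest ratios included receptors, lectins and chemokines known from macrophages. Ccl24, a CC chemokine that attracts eosinophils through Ccr3, stood at 630.1 CPM (573 to 691) in the macrophages and 1.58 CPM (0.634 to 3.25) in the other cells. Mrc1, the mannose receptor CD206, had 183 UMIs and 254 CPM in the macrophages and 0 UMIs in the other 606 cells. It was 376-fold higher when the 0 is set at 3 UMIs. Adgre1, the adhesion receptor known as F4/80, stood at 88.8 CPM, against 0.676 CPM in the other cells. The other genes among the 20 largest ratios were the anaphylatoxin receptors C5ar1 and C3ar1, the metal transporter Slc11a1, the lectins Clec4a1 and Clec4a3, Ms4a6b, Fcrls, Wfdc17, the RANK receptor Tnfrsf11a, the prostaglandin D synthase Hpgds, the crystallin Cryba4, Ccl12, the nucleotide receptor P2ry6 and the Fc receptor Fcgr4. Their levels in the macrophages ran between 51.4 CPM (Tnfrsf11a) and 318 CPM (Ms4a6b), and none of them exceeded 2.48 CPM (P2ry6) in the other cells.

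The promoters of C1qc, C1qb and Mrc1 are shown because the PU.1 factor, encoded by Spi1, binds purine-rich sites around GAGGAA. Mrc1 was picked for its large ratio. C1qc and C1qb are genes of the rule, so their large ratios follow from the choice of cells. Each line gives the 250 bases before the RefSeq transcript start (GRCm38.p6), 5′ to 3′ on the gene's strand, with GAGGAA or its other-strand form TTCCTC in capitals, together with a flanking GT or AC where the letters GAGGAAGT or ACTTCCTC occur.
C1qc, chr4:136892915-136893164, minus strand: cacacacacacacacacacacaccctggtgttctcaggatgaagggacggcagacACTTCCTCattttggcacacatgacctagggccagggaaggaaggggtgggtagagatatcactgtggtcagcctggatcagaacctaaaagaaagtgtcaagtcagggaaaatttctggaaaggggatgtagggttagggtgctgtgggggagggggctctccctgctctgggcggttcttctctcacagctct
C1qb, chr4:136886201-136886450, minus strand: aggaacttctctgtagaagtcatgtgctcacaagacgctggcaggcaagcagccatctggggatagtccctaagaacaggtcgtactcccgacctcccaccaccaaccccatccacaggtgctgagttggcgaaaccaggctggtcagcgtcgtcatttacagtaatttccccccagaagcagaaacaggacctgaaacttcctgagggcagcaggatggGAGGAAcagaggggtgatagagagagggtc
Mrc1, chr2:14229164-14229413, plus strand: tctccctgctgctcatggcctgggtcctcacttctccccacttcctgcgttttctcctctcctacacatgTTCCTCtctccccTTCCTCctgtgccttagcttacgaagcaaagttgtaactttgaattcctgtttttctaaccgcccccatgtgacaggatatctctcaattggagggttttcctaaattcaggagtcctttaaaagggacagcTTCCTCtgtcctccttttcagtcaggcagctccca
The C1qc window held 1 match, ACTTCCTC. The C1qb window also held 1 match, in the last 30 bases before the start. The Mrc1 window held 3 matches on the other strand. Over both strands, GAGGAA occurred in this window in 25.9% of the 27025 genes of the promoter table. It occurred in 102 of the 304 higher genes that had an entry (33.6%), in 137 of 400 lower genes (34.2%) and in 534 of 2083 genes that were neither (25.6%), so the higher and lower genes held it at about the same rate. Of the 20 genes with the largest ratios, which include the C1q genes of the rule, 16 had an entry, and 11 of these held the letters. Of the 12 genes with the smallest ratios 8 had an entry, and 1 held them. Both sets are small and were picked by their ratios, so no rate is read from them. The longer GAGGAAGT occurred in 12 of the 304 higher genes (3.95%), in 12 of the 400 lower genes (3%) and in 2.79% of all genes. Such matches are descriptions of the letters and not of binding.

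Genes around the Csf1 receptor and its signalling were higher together. Of 7 members of that list past the level floor all 7 were at least 2-fold higher in the macrophages, with a median log2 ratio of 4.11, against -0.23 over all genes. Tyrobp, the adaptor of several activating receptors, stood at 1513 CPM (1424 to 1605) in the macrophages and 87.4 CPM (78.9 to 96.5) in the other cells. Trem2, a lipid-binding receptor that signals through Tyrobp, stood at 186 CPM in the macrophages, against 3.83 CPM in the other cells. The kinase Lyn was 2.40-fold higher. The ligand Csf1 itself had 0 UMIs in the macrophages and 9 UMIs in the other cluster 3 cells.

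Transcription factors of the myeloid lineage followed, with 8 of 10 higher and 1 lower (median log2 ratio 2.86). Spi1 stood at 470.5 CPM (422 to 523) in the macrophages and 41.9 CPM (36.1 to 48.4) in the other cells. Maf, a factor of resident macrophages, stood at 323 CPM, against 4.96 CPM, Irf8 at 179 CPM, against 13.5 CPM, and Cebpb at 308 CPM, against 28.8 CPM. Runx1, which is needed for the emergence of blood cells from endothelium, stood at 76.3 CPM in the macrophages and 14.0 CPM in the other cells, and Zeb2 at 321 CPM and 76.8 CPM. The lower gene was Id3, at 65.2 CPM in the macrophages and 783 CPM in the other cells, most of which carried endothelium markers.

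Fc receptors and signalling adaptors of leukocytes were higher in 17 of 17 cases (median log2 ratio 3.76). Fcer1g, the common signalling chain of Fc receptors, stood at 1321 CPM (1239 to 1408) in the macrophages and 85.8 CPM (77.4 to 94.9) in the other cells, and the low-affinity receptor Fcgr3 at 602 CPM, against 17.6 CPM. The actin regulator Coro1a, the GTPase Rac2 and the surface peptide Cd52 were 8.66-fold, 8.48-fold and 13.4-fold higher. Of the innate sensor list only Ly86 (39.8-fold) and Unc93b1 (19.2-fold), which serve Toll-like receptor complexes, reached the floor, and both were higher. Tlr2 had 15 UMIs and the inflammasome protease Casp1 31 UMIs in the macrophages.

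Receptors for uptake were also higher, with 4 of 5 scavenger and phagocytic genes past the floor. Stab1, a scavenger receptor that sinusoidal endothelium also uses, stood at 217 CPM in the macrophages, against 44.1 CPM in the other cells, and Lrp1 at 72.2 CPM, against 5.86 CPM. Gas6, a ligand that bridges dying cells to phagocytes, was 8.66-fold higher, at 125 CPM in the macrophages. Scarb1, an HDL receptor, passed the floor without a call, at 55.5 CPM in the macrophages and 56.99 CPM in the other cells. Lyve1 was at 0 in every cell of the library, where no found gene occurred in fewer than 7 cells, so levels below that cannot be read from the table. Among other complement genes C3ar1 (222-fold) and C5ar1 were higher, and Cd93 was lower, at 2.78 CPM in the macrophages and 158 CPM in the other cells.

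Chemokines and cytokines were higher in 7 of 9 cases and lower in 1, Pf4 (median log2 ratio 5.70). Ccl6, a CC chemokine of myeloid cells, stood at 315 CPM in the macrophages, against 6.08 CPM in the other cells. Ccl9 stood at 283 CPM in the macrophages, against 4.73 CPM in the other cells. Ccl3, a ligand of Ccr1, stood at 239 CPM in the macrophages, against 14.0 CPM in the other cells. Ccl4, another CC chemokine, stood at 196 CPM in the macrophages, against 2.93 CPM in the other cells, and the secreted progranulin Grn at 243 CPM, against 34.2 CPM. Ccl12 had 44 UMIs in the macrophages and 0 in the other cells. Tgfb1, a cytokine of many cell types, had no call, at 215 CPM in the macrophages and 248.7 CPM in the other cells. Of the receptors, Cx3cr1, the fractalkine receptor of resident macrophages and microglia, stood at 394 CPM (349.6 to 443) in the macrophages and 7.43 CPM (5.12 to 10.4) in the other cells. Ccr2, the receptor of classical monocytes, stood at 13.9 CPM (10 UMIs in 5 cells) in the macrophages and 3.38 CPM (15 UMIs) in the other cells, under the floor. The integrin Itgb1 was lower (104 CPM, against 212 CPM), a call that was lost with TMM or median-of-ratios scaling.

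**Figure D2:**
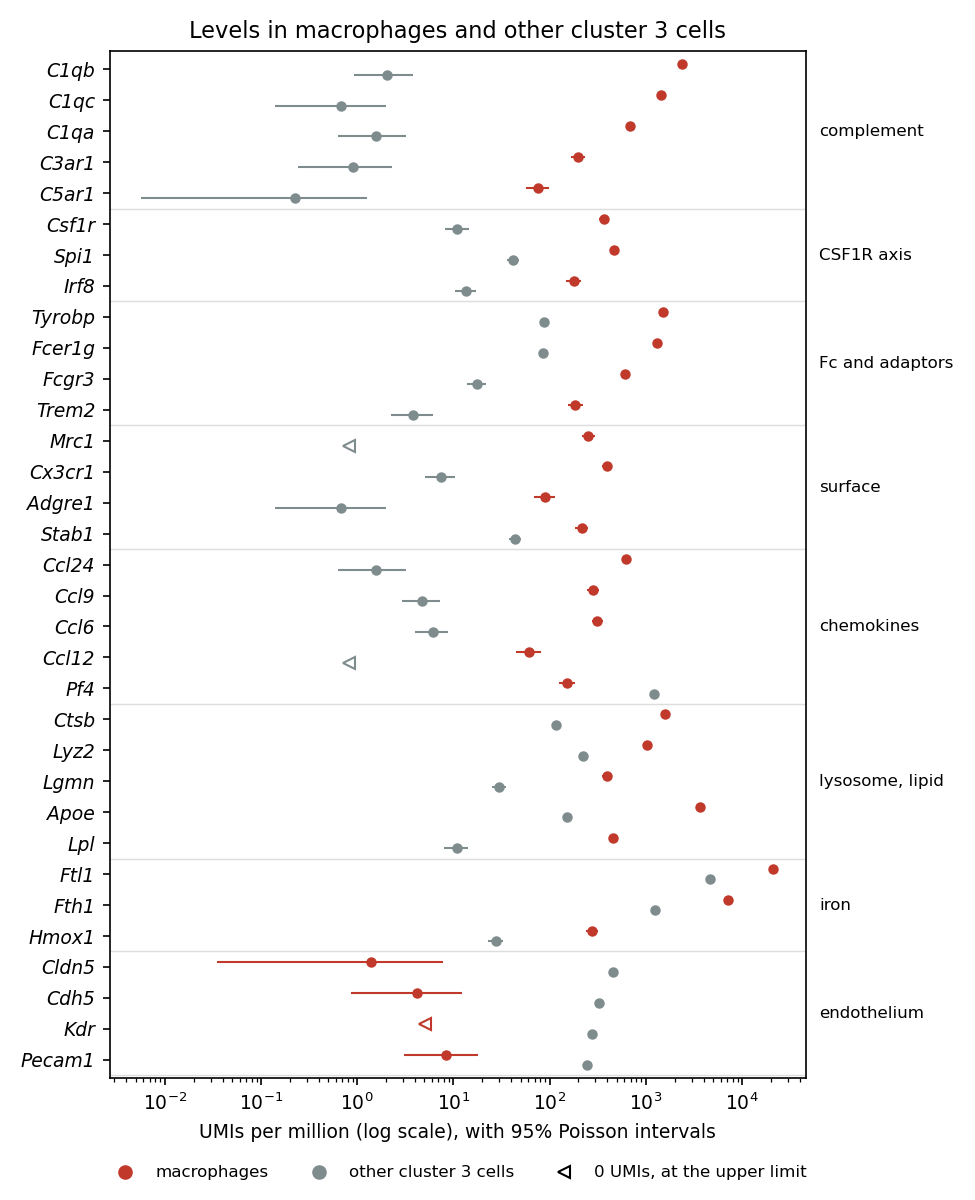
Level of each gene (horizontal axis, CPM on a log scale, with exact Poisson 95% intervals) in the 101 macrophages (red) and the 606 other cluster 3 cells (grey), by role. Open triangles mark groups with 0 UMIs at their upper limit, and the genes from complement to iron lie higher in the macrophages except Pf4, while the endothelium genes lie lower.

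Genes of the lysosome were higher in 22 of 24 cases and lower in 0, with a median log2 ratio of 2.03. The protease Ctsb stood at 1572 CPM (1482 to 1667) in the macrophages and 116 CPM (106 to 126) in the other cells. Ctsd and Ctsz were 6.29-fold and 5.62-fold higher, the saposin precursor Psap 4.04-fold, and the membrane protein Lamp1 and the cholesterol carrier Npc2 2.51-fold and 2.50-fold. Further proteases of the lysosome were higher too: Lgmn at 398 CPM in the macrophages and 29.96 CPM in the other cells, Ctsc at 454 CPM and 35.1 CPM, and Ctss at 228 CPM and 4.96 CPM. Cd68, a lysosomal membrane glycoprotein used to stain macrophages, stood at 257 CPM in the macrophages and 6.31 CPM in the other cells. In lipid handling 5 of 6 genes were higher. Apoe, the lipid carrier that macrophages secrete, stood at 3701 CPM (3562 to 3845) in the macrophages and 153 CPM (141 to 165) in the other cells, and the lipoprotein lipase Lpl at 462 CPM, against 10.8 CPM. The apolipoprotein Apoc1, the cholesterol exporter Abca1 and the lipid droplet protein Plin2 were 17.4-fold, 3.05-fold and 3.65-fold higher. Apoe was found in 100 of 101 macrophages (99.0%) and in 8.78% of cluster 0 cells. Cells of at least 2000 UMIs (87 macrophages, 13704 of cluster 0 and 471 other cluster 3 cells) were also thinned to 2000 UMIs. The shares were then 96.6% in the macrophages, 3.60% in cluster 0 and 18.5% in the other cluster 3 cells.

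Iron and haem genes were higher in 11 of 11 cases (median log2 ratio 2.58). The ferritin light chain Ftl1 stood at 21182 CPM in the macrophages, against 4642 CPM in the other cells, and the heavy chain Fth1 at 7240.5 CPM, against 1249 CPM. The iron exporter Slc40a1 was 14.8-fold higher and the haem-degrading enzyme Hmox1 10.1-fold higher, at 276 CPM in the macrophages. Hbb-y, an embryonic globin, stood at 129 CPM in the macrophages and 154 CPM in the other cells, and Hbb-bh1 at 29.1 CPM and 156 CPM, so that neither globin was higher in the macrophages.

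In antigen presentation 5 of 5 genes past the floor were higher (median log2 ratio 3.10). B2m, the light chain of class I molecules, stood at 977 CPM in the macrophages and 238 CPM in the other cells, and the class I genes H2-K1 and H2-D1 were 8.59-fold and 2.17-fold higher. The invariant chain Cd74 stood at 80.5 CPM in the macrophages, against 1.80 CPM, and was found in 32 of 101 macrophages. The costimulatory receptor Cd86 stood at 73.6 CPM, against 1.35 CPM in the other cells. The genes of the class II region on the list did not reach the floor, with 10 UMIs of H2-DMa in 9 macrophages, 5 of H2-Ab1, 3 of H2-DMb1 and 0 of H2-Eb1.

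Of the microglia list 6 of 8 genes were higher and 1, Sparc, was lower. The higher ones were Cx3cr1, Csf1r, Trem2, P2ry6, Fcrls and Cst3, which are shared with other resident macrophages. Genes more particular to mature microglia were sparse: P2ry12 stood at 26.4 CPM (19 UMIs) in the macrophages and 1.13 CPM in the other cells, Tmem119 at 24.98 CPM (18 UMIs) and 8.78 CPM, and Sall1 at 6.94 CPM (5 UMIs) and 1.35 CPM. None of these reached the floor. Sparc, a matrix glycoprotein of endothelium and mesenchyme, stood at 8.33 CPM in the macrophages and 1231 CPM in the other cells.

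Among growth and matrix factors 2 of 8 were higher and 4 lower. Igf1, a growth factor, stood at 169 CPM in the macrophages, against 41.4 CPM in the other cells, and the protease inhibitor Timp2 at 98.5 CPM, against 14.6 CPM. The lower ones were Fn1, Mmp2, Mmp14 and Nrp1, the last at 36.1 CPM, against 153 CPM. Of the immediate-early and dissociation genes 3 of 10 were higher (Fos, Egr1 and Zfp36) and 1 lower (Nfkbia), with a median log2 ratio of 0.03. Fos stood at 398 CPM in the macrophages and 34.0 CPM in the other cells. These genes can be induced by digestion of the tissue, and the part of that step was not tested.

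Few cell cycle genes were called. Of the S phase genes 0 of 17 were called in either direction (median log2 ratio -0.11), and of the G2 and M phase genes 1 of 16, Cdk1, was lower (median -0.23). Top2a stood at 330.3 CPM in the macrophages and 314 CPM in the other cells, and Mki67 at 130.5 CPM and 89.4 CPM. After thinning to 2000 UMIs, 51.7% of 87 macrophages (40.8 to 62.6%) and 65.0% of 471 other cells (60.5 to 69.3%) held at least 3 UMIs of the G2 and M list, while at least 1 such UMI was found in 89.7% and 89.4%. For the S phase list, at least 3 UMIs were found in 65.5% of the macrophages (54.6 to 75.4%) and 73.5% of the other cells (69.2 to 77.4%), and at least 1 in 94.3% and 94.5%.

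Endothelium genes, which most other cells of the cluster carried, were lower in the macrophages. All 14 endothelium markers were lower (median log2 ratio -6.01), and Emcn, Kdr, Flt1, Esam and Plvap had 0 UMIs in the macrophages. Plvap had 2616 UMIs in the other cells, which makes it at least 142-fold lower in the macrophages. Cldn5, a tight junction protein, had 1 UMI in the macrophages and 2024 UMIs (456 CPM) in the other cells. Cavin3, Igfbp3, Crip2, S100a16, Aplnr, Ramp2, Gja4 and Ctla2a each had 1 or 2 UMIs in the macrophages, and between 184 CPM (Ctla2a) and 629 CPM (Crip2) in the other cells. Egfl7 was the endothelium marker with most UMIs in the macrophages, at 74.9 CPM, against 469 CPM in the other cells.

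Markers of other cell types were counted in each cell, since no doublet caller was run. At least 3 endothelium marker UMIs were found in 8 of 101 macrophages (7.92%) and in 409 of 606 other cells (67.5%). At least 5 limb mesenchyme marker UMIs were found in 13 macrophages (12.9%) and in 47 other cells (7.76%). Prrx1 and Prrx2, mesenchyme factors, were called higher in the macrophages, Prrx1 at 80.5 CPM and 33.6 CPM in the other cells, but 10 macrophages held 86.2% of the 58 Prrx1 UMIs. Both genes belong to the list that marked those 13 macrophages, so their fall without these cells, where the ratio of Prrx1 was 0.264 and the ratio of Prrx2 was 0.697, is fixed by the exclusion and is no test. In cluster 0 Prrx1 stood at 510.3 CPM. The part of mixed droplets in the Prrx1 and Prrx2 levels was not tested. Ednrb, an endothelin receptor of the neural crest list and the only member of 9 past the floor there, stood at 95.8 CPM in the macrophages and 27.0 CPM in the other cells. It was found in 34 of 101 macrophages, while Sox10, Foxd3 and Fabp7 of the same list had 0 UMIs in them. Ectoderm and muscle progenitor markers did not reach the floor (0 of 14 and 0 of 10), with summed levels of 29.1 and 2.78 CPM in the macrophages, against 33.3 and 24.6 CPM in the other cells.

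Megakaryocyte markers were lower in 5 of 6 cases, with 9 of 14 at 0 UMIs in the macrophages, and Rap1b, which many cells use, was neither. Of the erythroid markers 2 of 3 were lower, and of the haematopoietic progenitor markers 2 of 3, Cd34 and Lmo2, with 0 UMIs of Kit in the macrophages. Mast cell markers totalled 1 UMI. In the lymphoid and dendritic list Cd79b was the only gene past the floor, at 65.2 CPM in the macrophages and 11.04 CPM in the other cells, while its partner Cd79a had 1 UMI. The monocyte list was higher in 3 of 4 cases: Lyz2, lysozyme, at 1038 CPM, against 223 CPM, F13a1 at 197 CPM, against 8.33 CPM, and Plac8 at 246 CPM, against 103 CPM. The granule protease Prtn3, of the neutrophil list, stood at 47.2 CPM in the macrophages and 64.6 CPM in the other cells, and Mpo at 4.16 CPM and 23.4 CPM.

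The other 606 cells were themselves mixed. At least 3 of 8 leukocyte genes (Spi1, Csf1r, Tyrobp, Ptprc, Lyz2, Mrc1, Laptm5 and Fcer1g) were found in 99 of 101 macrophages and in 57 of the 606 other cells. That set of 57 C1q-low leukocyte cells was drawn after the values were seen, and its levels of those 8 genes follow from how it was drawn. Of the 57 cells, 33 held at least 3 UMIs of Lyz2, Mpo, Prtn3 and Plac8 without as many of the megakaryocyte genes Ppbp, Itga2b, Gp9 and Itgb3, 9 the reverse and 9 both, while the macrophages counted 68, 0 and 0. The median depth was 6501 UMIs in the macrophages and 8739 in the C1q-low leukocyte cells.

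Set against these 57 cells, the macrophages had 268 genes at least 2-fold higher (8.26% of 3244 past the floor) and 276 lower (8.51%), with a median log2 ratio of -0.11. Mrc1 had 0 UMIs in the C1q-low cells. Ccl24 had 454 UMIs in the macrophages and 1 in the C1q-low cells, and Stab1 156 and 2. Apoe stood at 3701 CPM in the macrophages and 282 CPM in the C1q-low cells, and Ctsb at 1572 CPM and 95.4 CPM. Fcer1g and Tyrobp, which took part in drawing the set, were 2.02-fold and 2.03-fold higher, and Spi1 stood at 470.5 CPM in the macrophages and 337 CPM in the C1q-low cells. Some leukocyte genes of the lists above had no call here. Coro1a was 1.20-fold higher, Rac2 1.08-fold, Cd52 1.62-fold and Lyn 1.75-fold. Irf8 was 1.64-fold higher, Cebpb 1.82-fold, Zeb2 1.70-fold, H2-K1 1.56-fold and H2-D1 1.64-fold. Others were called higher, among them Maf (13.8-fold) and Trem2 (6.37-fold). The monocyte and granule genes did not move as 1 group. F13a1 was 2.89-fold higher in the macrophages, at 197 CPM, against 68.1 CPM in the C1q-low cells, while Plac8, Prtn3 and Mpo were lower. Lyz2, which took part in drawing the set, had no call. It stood at 1038 CPM in the macrophages and 1921 CPM in the C1q-low cells, Plac8 at 246 CPM and 862 CPM, Prtn3 at 47.2 CPM and 522 CPM, and Mpo at 4.16 CPM and 197 CPM. Pf4 stood at 151 CPM in the macrophages and 7880.3 CPM in the C1q-low cells.

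**Figure D3:**
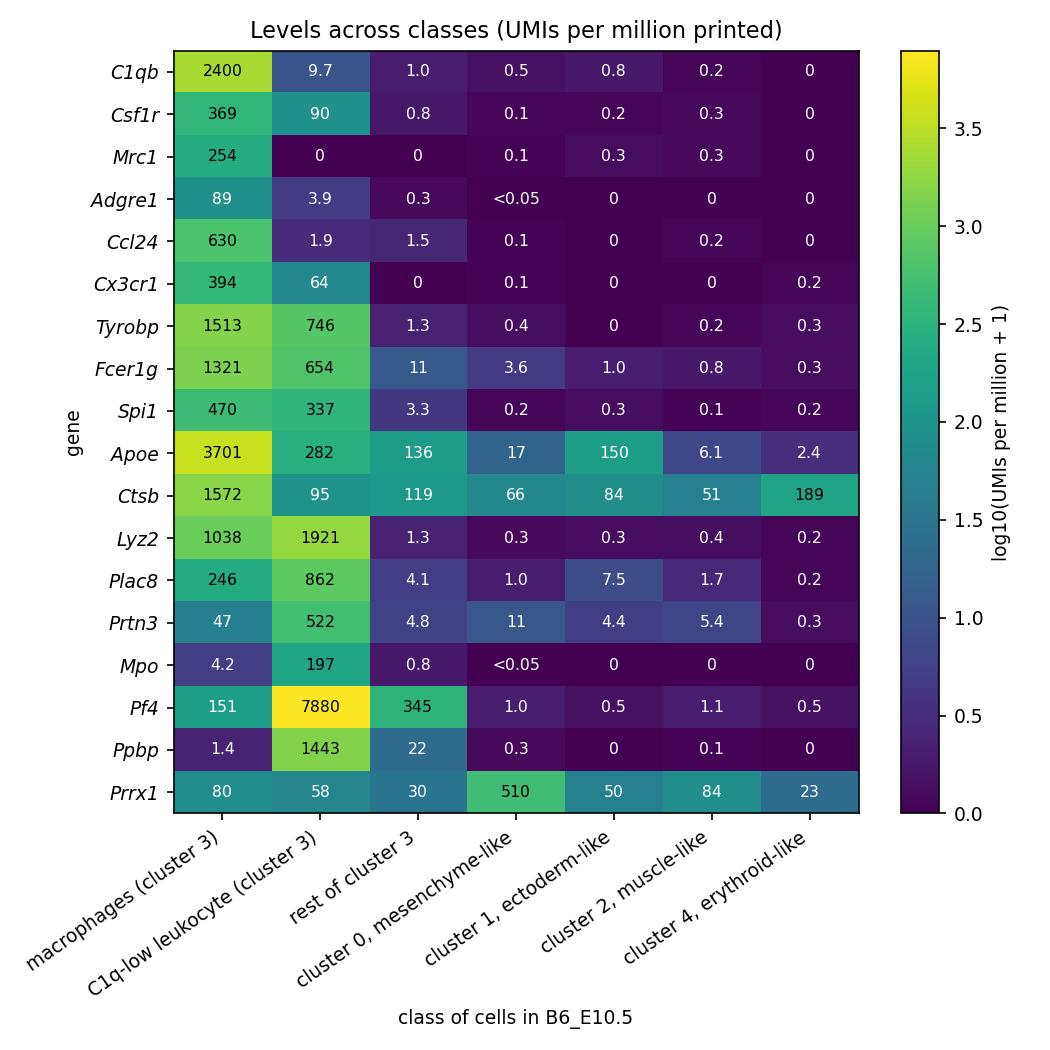
Level of each gene (rows) in classes of cells of B6_E10.5 (columns), as CPM printed in each field and coloured on a log10 scale after adding 1. The macrophages lead in the genes from C1qb to Ctsb, the C1q-low leukocyte cells in Lyz2, Plac8, Prtn3, Mpo, Pf4 and Ppbp, and cluster 0 in Prrx1.

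Outside cluster 3 Csf1r and Tyrobp were near 0, while other genes that were higher in the macrophages were not. Csf1r stood at 0.121 CPM in cluster 0 (12 of 12 limb mesenchyme markers at 10 CPM or more), at 0.162 CPM in cluster 1 (14 of 14 ectoderm markers) and at 0.251 CPM in cluster 2 (9 of 10 muscle progenitor markers). Tyrobp did not exceed 0.375 CPM in these clusters, which was its level in cluster 0. Apoe was less restricted, at 150.1 CPM in cluster 1 and 16.96 CPM in cluster 0, and Ctsb stood at 189 CPM in cluster 4, whose cells carry erythroid markers. Fth1 stood at 8241 CPM in cluster 4, above its 7240.5 CPM in the macrophages. Ftl1 ran between 4518 CPM (cluster 1) and 6482 CPM (cluster 4) in the other clusters.

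The macrophages varied among themselves, and some genes were concentrated in few of them. Ccl24 had 0, 1 and 87 UMIs as the lowest, median and highest value per cell, and 10 cells held 79.1% of its 454 UMIs. For Hmox1 the 10 highest cells held 76.4% of the UMIs, and for Ccl6 69.6%. For C1qb the same share was 28.6%, for Tyrobp 23.3% and for Apoe 29.7%. Ccl24 was found in 52 of 101 macrophages (51.5%), Mrc1 in 58 (57.4%) and Csf1r in 83 (82.2%). After thinning to 2000 UMIs the shares were 31.0%, 37.9% and 48.3%, against 0%, 0% and 1.91% in the other cluster 3 cells and at most 0.0438% in cluster 0. Tyrobp was found in 97.0% of macrophages, or 88.5% after thinning. The lowest, median and highest values per cell were 0, 19 and 107 UMIs for Apoe, 0, 10 and 34 for Tyrobp and 0, 2 and 11 for Csf1r. Cx3cr1 was found in 75.2% of the macrophages, with a median of 2 and a highest value of 12 UMIs, and Lyz2 in 83.2%, with a median of 5 and a highest value of 65 UMIs.

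The cells just below the C1q threshold were few and shallow. The 592 cells with 0 C1q UMIs, the 14 with 1 or 2, the 22 with 3 to 9, the 26 with 10 to 24 and the 53 with 25 or more had median depths of 6480, 1353, 2647.5, 4265.5 and 8592 UMIs, so the groups differ in depth. In that order Mrc1 stood at 0, 0, 72.5, 175 and 298 CPM. Apoe stood at 149, 584, 2624, 3463 and 3904 CPM in the same order. Plac8, a gene of monocytes and granulocyte progenitors, stood at 93.0, 1168, 435, 396 and 183 CPM, so the level among macrophages was lowest in the cells with most C1q.

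**Figure D4:**
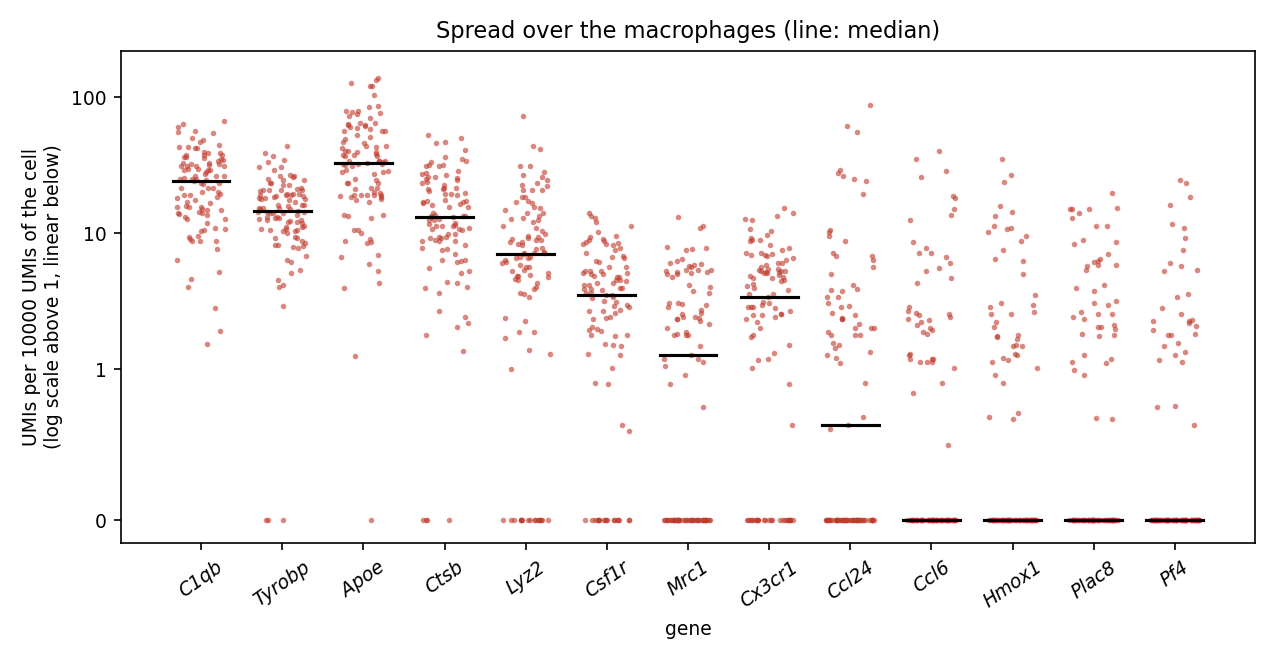
UMIs per 10000 UMIs of the cell (vertical axis, log scale above 1 and linear below) for 13 genes in each of the 101 macrophages (points), with the median as a black line. C1qb, Tyrobp and Apoe are found in nearly every cell, while Ccl24, Ccl6, Hmox1, Plac8 and Pf4 are spread over few cells at high levels and many at 0.

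The macrophages were then ordered by the share of their UMIs that came from C1q and split into 3 near-equal groups of 34, 34 and 33 cells, with median depths of 6732, 6198.5 and 5835 UMIs, from lowest to highest share. This split was made after other values had been seen. It uses the C1q counts that also chose the cells, so the levels along it are a description and no test. Mrc1 stood at 149, 269.6 and 364 CPM from the lowest to the highest group. Apoe stood at 2430.4, 3505 and 5474 CPM and Ctsb at 849.7, 1630.0 and 2387 CPM in the same order. Plac8 ran down with C1q, at 455, 192 and 51.3 CPM, and so did Prtn3, at 80.4, 40.9 and 14.0 CPM. Cx3cr1 stood at 432, 379.9 and 364 CPM, with intervals that overlap. Lyz2 had no steady direction, at 1118, 849.8 and 1156 CPM. Ccl24 was highest in the middle group, at 1233.8 CPM. Since 10 macrophages held 79.1% of all its UMIs, its level in a group depends on few cells. Pf4 stood at 53.6, 81.7 and 349.7 CPM.

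Mesenchyme markers moved with this order too: of the 13 macrophages with at least 5 mesenchyme marker UMIs, 11 lay in the lowest group, 2 in the middle and 0 in the highest. With those 13 cells left out and the other 88 split again, Mrc1 stood at 184, 312 and 356 CPM, Apoe at 2999.6, 3950.3 and 5489.9 CPM, Plac8 at 487, 231 and 30.9 CPM and Prtn3 at 108, 48.4 and 10.3 CPM. The directions of these 4 genes were as before. In this split Cx3cr1 fell more, at 504, 457 and 320 CPM, and the intervals of the lowest group (406 to 617) and the highest (245 to 410) overlapped only narrowly. The median depths of the 3 groups were 4717, 5601 and 7420 UMIs, so the groups of this split differ in depth.

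**Figure D5:**
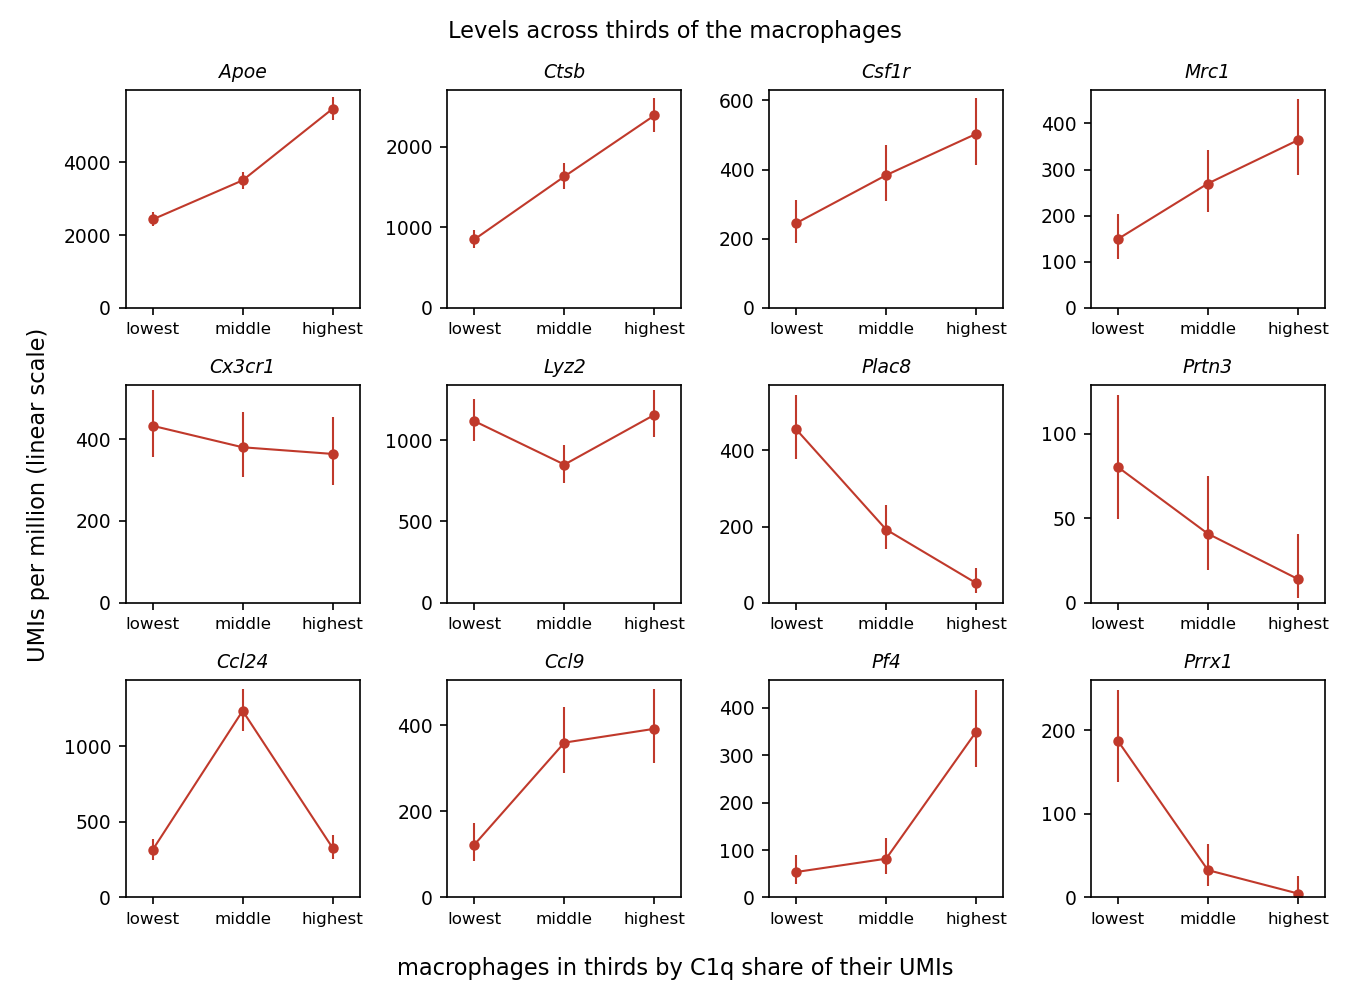
Level of 12 genes (vertical axes, CPM on linear scales from 0, with exact Poisson 95% intervals) in 3 near-equal groups of macrophages ordered by the C1q share of their UMIs (horizontal axes). Apoe, Ctsb, Csf1r and Mrc1 are higher from the lowest group to the highest, and Plac8, Prtn3 and Prrx1 lower. Ccl24, most of whose UMIs lie in few cells, is highest in the middle group.

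The E9.5 libraries could not be searched by the same rule. C1qa, C1qb and C1qc were at 0 in all 12773 cells of B6_E9.5 and all 12220 cells of 129_E9.5. At 0 in both were 16 of the 20 genes with the largest ratios, the 3 C1q genes among them, and 50 of the 387 higher genes (12.9%). The same 50 were all such genes among the 3478 past the floor (1.44%). They passed the floor through the macrophages, so these shares do not form a comparison. The found genes of B6_E9.5 occurred in 3 or more cells and those of 129_E9.5 in 6 or more, and the labels do not say whether rare genes were removed from each library before deposit. All 440 genes at 0 throughout both E9.5 libraries were the last 440 genes in the deposited order. Whether such a removal set these zeros was not tested. A gene at 0 throughout a library is therefore only listed at 0. Csf1r, Tyrobp, Ptprc and Mrc1 were also at 0 throughout 129_E9.5.

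Genes that all libraries kept gave a count that does not need C1q. At least 3 of the 4 genes Spi1, Lyz2, Laptm5 and Fcer1g were found in 127 of 707 cluster 3 cells of B6_E10.5 (18.0%, 15.2 to 21.0%), 11 of 850 of B6_E9.5 (1.29%, 0.648 to 2.304%) and 8 of 458 of 129_E9.5 (1.75%, 0.757 to 3.41%). After thinning to 2000 UMIs the counts were 66 of 558, 1 of 551 and 1 of 413. With 1 library per group and only 1 library at E10.5, stage cannot be told apart from embryo, dissection and reaction. The median depth was 6501 UMIs in the E10.5 macrophages and 21158 UMIs in the 11 cells of B6_E9.5. The macrophages were chosen by C1q and the 11 cells by leukocyte genes, so their levels are given side by side and not compared. Csf1r stood at 369 CPM in the macrophages and 85.2 CPM (17 UMIs in 6 cells) in the 11 cells, and Apoe at 3701 CPM and 50.1 CPM (10 UMIs in 5 cells). The 11 cells were mixed: 4 of them held all 1354 Pf4 UMIs of the set, and 7 held Prtn3.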

How the data were processed

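The authors deposited UMI counts per gene and cell, with a cluster number for each cell, for 3 libraries. Per the submitters' processing notes, Cell Ranger 3 and mm10 were used; the clustering method, the filters and the annotation are not given in the sources used here. No doublet caller was run. Cell barcodes occurred in more than 1 library for 1728 cells, so cells were identified by library and barcode.

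The macrophages and the gene lists were chosen with earlier results of these data known. UMIs were summed over the cells of a set and given per 1000000 UMIs (CPM) with exact Poisson 95% intervals. Ratios have exact intervals from the split of the summed counts, and a 0 was set at 3 UMIs over the set. To be called, a gene needed a ratio of 2 or more, an interval without 1, and a level of 50 CPM (and 20 UMIs) where it was higher. With 1 library per group there is no replicate test. Totals were 119942504 UMIs in B6_E10.5, 124388358 in B6_E9.5 and 93029510 in 129_E9.5. Of the list genes, 66 of 457 were not analysed here, and a few others are not reported here.

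The text names the label's 5 markers, the 20 largest and 12 smallest ratios without ribosomal, mitochondrial, histone and uncharacterised genes, and in each list up to 6 genes with most UMIs in the macrophages (3 in marker lists), or at most 3 UMIs. Other named genes, such as Id3, Cd93, Cdk1, Ccr2, P2ry12, Tmem119 and Sall1, were chosen after their values were seen. So were the C1q-low leukocyte cells, the split by C1q share, the promoter motif, the leukocyte gene counts by library and the exclusion of macrophages with mesenchyme markers. The calling step was tested on simulated Poisson counts with known fold changes. These hold no variation between cells, so the test does not cover genes concentrated in few cells. Alternatives were TMM factors (edgeR 4.0.16) and median-of-ratios size factors (DESeq2 1.42.0) on R 4.3.3, thinning to 2000 UMIs, no floor, other fold and C1q thresholds, mean CPM per cell, and cells with other markers left out. Python 3.11.15, numpy 2.4.6, scipy 1.17.1, pandas 2.3.3 and matplotlib 3.10.9 were used.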

Additional observations from a re-analysis of the deposited data

Results flagged for a closer look

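In B6_E10.5, 6 cells outside cluster 3 also held at least 3 C1q UMIs, which the rule on the cluster left out of the macrophages. All 6 lay in cluster 0, where they are counted among the 54 cells with a C1q UMI and in the levels of that cluster, with 11 C1q UMIs in 1 cell, 4 in another and 3 in the other 4. They held between 5384 and 13111 UMIs in all, and between 6 and 31 UMIs of limb mesenchyme markers. Of the 8 leukocyte genes counted above, the cell with 4 C1q UMIs held 5 and the others held 1 or 2.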

How the results depend on the processing

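No paired analysis was possible because each group is 1 library and no test was made. The 387 genes higher in the macrophages than in the other cluster 3 cells became 1061 with no floor, 215 after thinning to 2000 UMIs and 227 at a ratio of at least 4. The 516 lower genes became 1462 with no floor and 242 at a ratio of at least 4. The 2 scalings moved the share of calls that were higher, which was 42.9%, to 53.8% (TMM, 470 higher and 404 lower) and 54.5% (median-of-ratios, 483 and 404), and thinning moved it to 26.5% (215 and 595). All 387 higher and 404 of the 516 lower genes were shared with either scaling, and 190 and 421 with thinning. The median log2 ratio of all genes was -0.23, -0.04 and -0.03 under the 2 scalings and -0.43 after thinning. At 10 or more C1q UMIs the macrophages were 0.417% of the library and 11.2% of cluster 3. Without the macrophages with mesenchyme markers, the ratio of Prrx1 was 0.264 and the ratio of Prrx2 was 0.697, both in the other direction, which the exclusion itself fixes because it used these genes. Of 1559 values of 156 named genes under 10 settings, 1365 stayed within the interval of the ratio, 192 left it and 2 changed direction. Changes of direction were counted only for genes called in the main setting. Genes under about 20 UMIs have wide intervals, and all intervals leave out differences between embryos.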
